A study of Homo sapiens with 9 samples.

Results

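The comparison described here is the later part of the response to UV light: nascent RNA labelled at 16 h against nascent RNA labelled at 3 h after 12 J/m2 UV-C, each line set against itself. It uses 6 of the 9 libraries of the series, and its members are the 8007 transcription start identifiers listed in all 6, of 9748 listed in any of them. The study measured nascent RNA by BrU-seq, in which cells take up bromouridine during a short pulse and the labelled RNA is captured by an antibody against BrdU and read out by sequencing. The pulse lasted 30 min with 2 mM bromouridine. The labels disagree on its timing: the sample characteristics place its start 2.5 h and 15.5 h after irradiation, while the protocol text describes incubation for 3 and 16 h before it.

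All cells were human hTERT RPE1 retinal pigment epithelium lines with the shared background iCas9 p53/puro-dKO, an inducible Cas9 in a double knockout that takes away p53. The WT line had no further change, the KO line also lacked STK19, and the rescue line was the STK19 knockout with STK19-TY put back. There was 1 library for each line and time, so the 3 lines served as the repeats of the comparison, and rescue was made from STK19-KO cells, so KO and rescue are not independent of each other. The p-values for 16 h against 3 h therefore set the mean change over these 3 lines against its spread between lines. That spread was pooled over identifiers of like level, wholly for the near level and largely for the other measures. For the near level an identifier's own agreement between lines therefore had no weight in its p-value. The identifiers were not matched to gene names here, so neither the marker genes of the epithelium nor STK19 itself could be checked, and identifiers are given as deposited.

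UV-C makes lesions in DNA that stop RNA polymerase II when it meets them in a transcribed strand. A polymerase that has travelled far from its start has had more chances to meet a lesion, so after UV nascent RNA is typically kept close to promoters and lost deep in long genes. Transcription-coupled repair, in which CSB, CSA, UVSSA, ELOF1 and STK19 take part, clears such lesions, and the return of signal far from the start is a common readout of recovery.

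Each identifier had signal in 200 bp bins from 100 kb upstream to 100 kb downstream of its transcription start site (TSS). The near level averaged the bins from 0 to 25 kb, the distal level those from 25 to 100 kb, and the start ratio the signal of the first 1 kb over that of 1 to 5 kb. Of the 8007 identifiers, 3586 passed the filter on the near level, 4254 that on the distal level, 2754 both, and 2921 neither. The start ratio was measured for 3239.

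The libraries differed in depth, and depth moved with time. Judged from the smallest step between deposited values, the 16 h library was deeper than the 3 h library by 2.04 times in WT, 2.59 times in KO and 4.41 times in the rescue line. KO at 3 h was the shallowest of the 6 and WT at 16 h, at 13.1 times its depth, the deepest. The authors had scaled the libraries to like totals: the summed signal at 16 h was 0.888 times that at 3 h in WT, 1.07 times in KO and 1.02 times in the rescue line. All signal levels are on that scale, so a change is relative to the rest of its library, and fewer cells making a transcript cannot be told apart from less of it per cell. The part of depth in the changes below was not tested beyond the values given beside them.

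At 16 h the WT line had less signal next to the TSS than at 3 h. The typical identifier had more signal far into the window in WT and rescue, and slightly more in KO. The KO line showed little redistribution between near and distal in either direction. The mean near level in WT was 9.46 at 3 h and 7.07 at 16 h, a ratio of 0.748. In KO it was 8.22 and 8.47, a ratio of 1.03, and in the rescue line 8.39 and 8.20, a ratio of 0.977. The near level summed over identifiers thus dropped in WT and was nearly level in the other lines.

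The typical identifier was described by the median of its log2 change from 3 h to 16 h, computed on log2(signal + 0.1). For the near level the median was -0.09 in WT, 0.22 in KO and 0.42 in the rescue line, a mean of 0.19 ± 0.26 (SD, n = 3 lines). It was higher at 16 h in 1619 of 3586 identifiers in WT, 2238 in KO and 2492 in the rescue line. The spread between lines was larger than the mean, and WT lay on the other side of 0 from both other lines, though without the filter on low levels its median was 0.08. Trimmed-mean scaling, computed on the near levels themselves, brings these medians close to 0 in every line by construction, so their order rests on the authors' scaling. Signs per identifier were mixed: 1054 identifiers (29.4%) were higher at 16 h in all 3 lines, 557 (15.5%) were lower in all 3, and 767 (21.4%) were lower in WT and higher in both other lines.

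**Figure D1:**
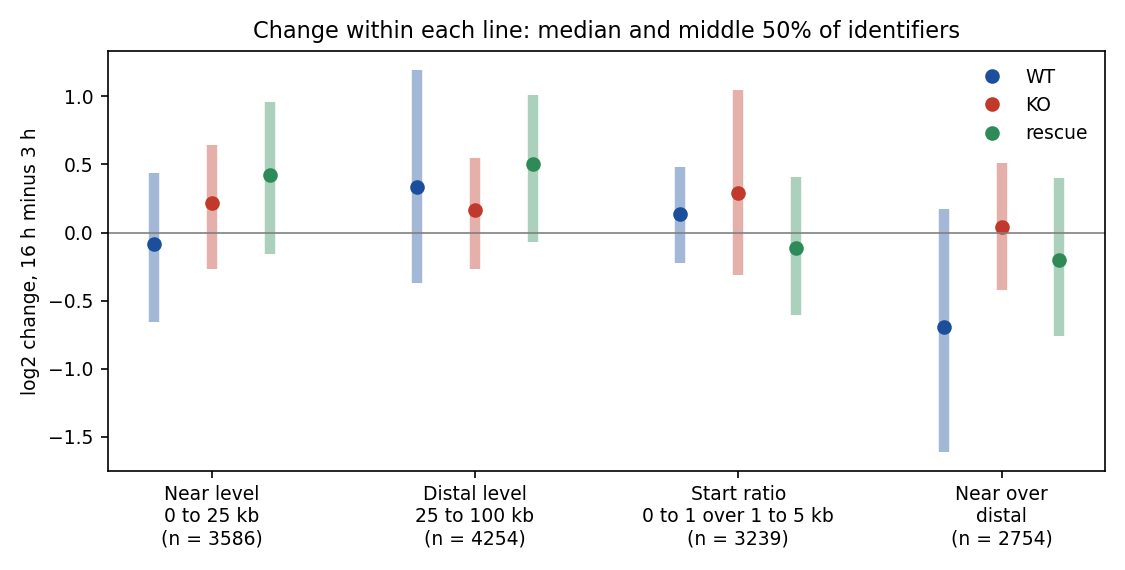
Log2 change from 3 h to 16 h within each line for the near level, the distal level, the start ratio and the near over distal balance; points are medians over identifiers and bars span the middle 50% of identifiers, with 1 library per line and time. The WT balance has its median at -0.69, while that of KO lies at 0.04.

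Tested in limma with the line as a block and Benjamini-Hochberg adjustment over all 3586 identifiers, the near level of 465 changed between 3 h and 16 h (13% of those tested), 233 higher and 232 lower at 16 h. The same direction held in all 3 lines for 431 of the 465, which calling by this same test favours. Over all 3586 tested, 1054 were higher and 557 lower in all 3 lines. The split of the calls depended on scaling. With trimmed-mean factors in place of the authors' totals, 576 were called, 193 higher and 383 lower. The median over all identifiers moved from 0.20 to 0.03. Without the rescue line 105 were called, and without KO 262. The median change was 1.29 among those called higher and -1.47 among those called lower.

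For the distal level the lines differed in how many identifiers moved strongly. Its median log2 change was 0.34 in WT, 0.17 in KO and 0.51 in the rescue line, a mean of 0.34 ± 0.17 (SD, n = 3 lines). The level was higher at 16 h in 2632 of 4254 identifiers in WT, 2596 in KO and 3061 in the rescue line. Distal signal was at least 2-fold higher at 16 h in 29.2% of 4254 identifiers in WT and 25.3% in the rescue line, against 7.08% in KO. It was at least 2-fold lower in 8.82% in WT, 4.89% in the rescue line and 6.79% in KO. The small medians turned with the processing: the WT median was -0.02 with a filter 4 times higher, and the KO median was -0.02 under trimmed-mean scaling, where that of rescue was 0.12. The middle 50% of identifiers spanned -0.37 to 1.19 in WT and -0.27 to 0.55 in KO. The depth gain from 3 h to 16 h was 4.41 times in the rescue line, which had the largest distal median, 2.59 times in KO, which had the smallest, and 2.04 times in WT. Of the 4254 identifiers, 1500 failed the near filter. Their median distal change was 0.08 in WT, 0.16 in KO and 0.44 in the rescue line. In the 2754 past both filters it was 0.52, 0.18 and 0.54. In WT, distal signal was higher at 16 h in 52.9% of the 1500 and 66.8% of the 2754.

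For the distal level the typical identifier and the summed signal differed in WT and rescue. Mean distal signal was 4.08 at 3 h and 3.97 at 16 h in WT, 4.10 and 4.34 in KO, and 4.21 and 4.27 in the rescue line, so the summed signal changed by ratios of 0.971, 1.06 and 1.02. The median distal level, by contrast, was 1.92 at 3 h and 2.80 at 16 h in WT, 2.04 and 2.21 in KO, and 1.73 and 2.54 in the rescue line. In WT the sum was thus slightly lower at 16 h while the median was higher, and in KO both were slightly higher.

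The changes were also set out by level: identifiers were ranked by their mean level over the 6 libraries and cut into 4 equal classes. In WT and rescue, distal signal was higher at 16 h in the lower classes and lower in the highest class. In WT the summed distal signal at 16 h was 2.07 times that at 3 h in the lowest class (levels 0.501 to 1.17), 1.74 times in the second, 1.26 times in the third and 0.744 times in the highest (levels 4.71 to 92.5). The rescue line ran the same way, from 1.57 times in the lowest class to 0.859 times in the highest. In KO the 4 summed ratios stayed between 0.964 and 1.13, with no order by level. Its median distal change, however, rose with level, from -0.003 in the lowest class to 0.31 in the highest. The share of identifiers higher at 16 h in KO rose from 49.9% to 71.1%. For the near level, the WT ratio ran from 1.26 in the lowest class to 0.623 in the highest, that of rescue from 1.51 to 0.845, and that of KO from 1.05 through 1.17 in the third class to 0.976.

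**Figure D2:**
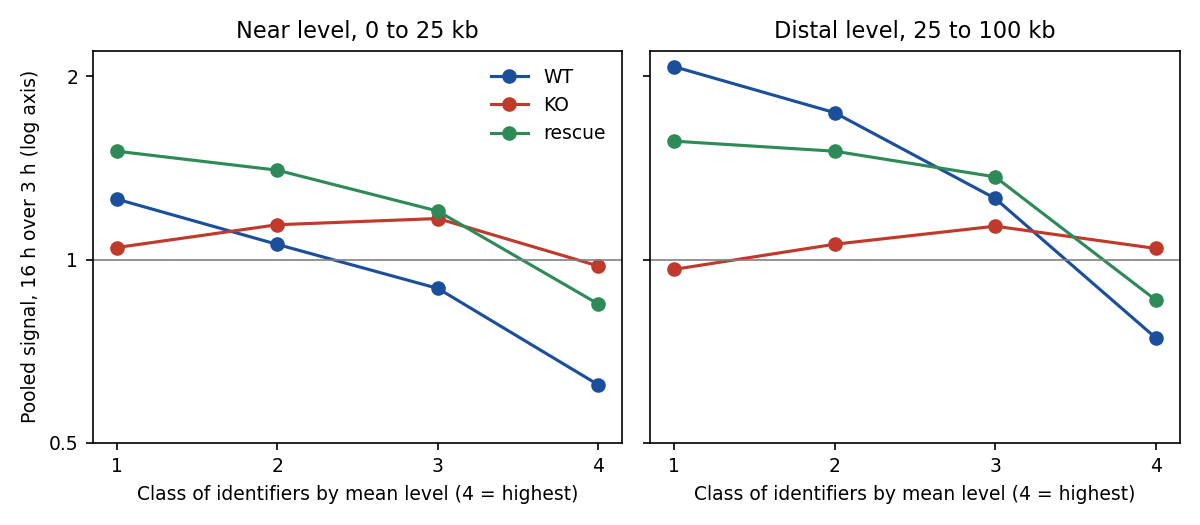
Summed signal at 16 h over that at 3 h (log axis) for identifiers in 4 equal classes of mean level, from the lowest (1) to the highest (4), for each line; each point is 1 pair of libraries. The WT and rescue lines slope down with level. For the distal level WT goes from 2.07 to 0.744, and the KO summed ratio stays between 0.964 and 1.13.

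In limma, 433 of 4254 distal levels changed between 3 h and 16 h (10.2%), 279 higher and 154 lower. For 420 of these the sign was common to the 3 lines, which calling by this same test favours. Under trimmed-mean scaling 104 were called, 6 higher and 98 lower, and the median over all identifiers moved from 0.38 to 0.22. Leaving out rescue left 36 calls, 1 higher and 35 lower, whereas leaving out KO gave 1162, 942 of them higher. Over all 4254, distal signal was higher at 16 h in all 3 lines for 1583 identifiers (37.2%) and lower in all 3 for 504 (11.8%). It was higher in WT and rescue but lower in KO for 766 (18.0%). The reverse pattern, lower in WT and rescue and higher in KO, was seen for 405 (9.52%).

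Near and distal changes of the same identifier were set side by side in the 2754 that passed both filters. In WT, 865 of them (31.4%) had a lower near and a higher distal level at 16 h. The same combination was found for 430 (15.6%) in KO and 482 (17.5%) in the rescue line. Both levels were higher in 974 in WT, 1269 in KO and 1536 in the rescue line. The commonest WT pattern besides a rise of both was therefore a shift from near to distal.

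The near over distal balance, the log2 ratio of both levels within a library, does not depend on how a library was scaled apart from its pseudocount. Its median change was -0.69 in WT, 0.04 in KO and -0.20 in the rescue line, a mean of -0.28 ± 0.37 (SD, n = 3 lines). The balance moved toward distal in 1939 of 2754 identifiers in WT, 1316 in KO and 1636 in the rescue line. It fell at least 2-fold in 41.9% of identifiers in WT, 7.88% in KO and 17.5% in the rescue line. In limma, 203 balances changed (7.37%), 90 toward near and 113 toward distal, and the number was 25 without rescue and 385 without KO.

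Along the first 100 kb, the change in WT depended steeply on distance from the TSS. In windows of 5 kb over the 2754 identifiers, the WT median was -0.50 at 0 to 5 kb, was above 0 from 10 kb on, peaked at 1.12 at 40 to 45 kb and was 0.69 at 95 to 100 kb. The rescue median lay between 0.32 and 0.68 in every window downstream of the TSS, lowest at 0 to 5 kb and highest at 50 to 55 kb. In KO the largest median was the one next to the TSS, 0.37 at 0 to 5 kb, and beyond 25 kb it stayed between 0 and 0.20. By medians the KO profile thus sloped the other way from that of WT near the TSS, which the summed signal of these 2754 identifiers did not show.

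**Figure D3:**
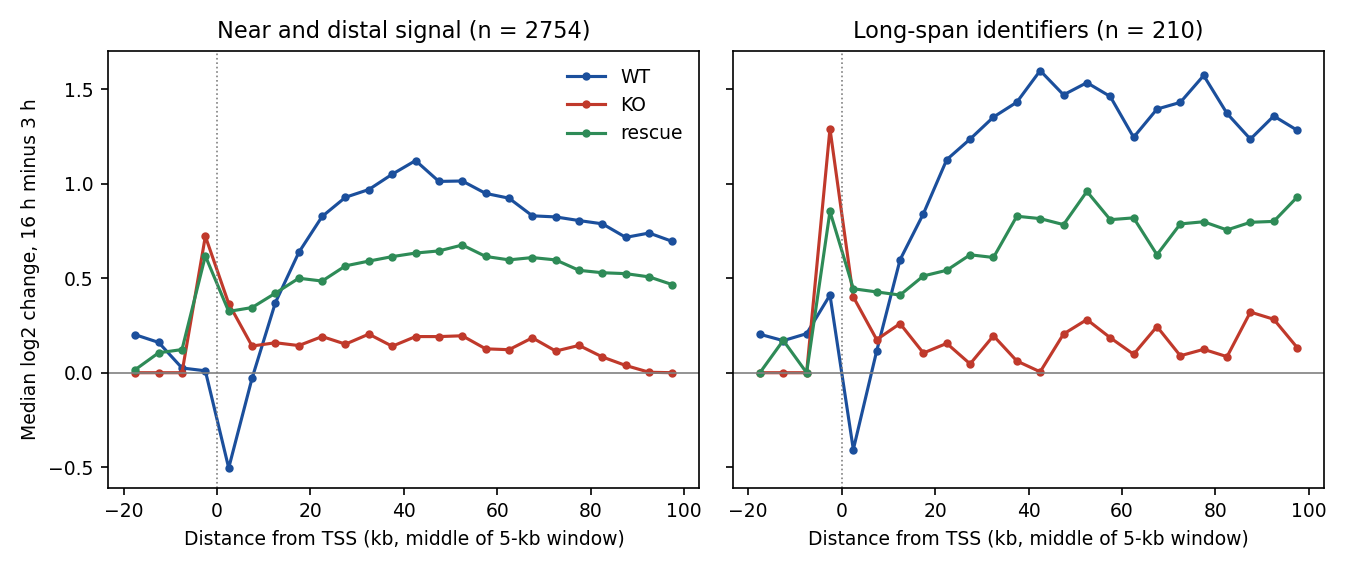
Median log2 change from 3 h to 16 h in windows of 5 kb against distance from the TSS, for identifiers with near and distal signal (left) and long-span identifiers (right), one line for each cell line. WT rises from -0.50 at 0 to 5 kb to 1.12 at 40 to 45 kb on the left, and KO stays between 0 and 0.20 beyond 25 kb.

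The shallow libraries had many empty windows far from the TSS. At 40 to 45 kb no signal was found for 9.30% of identifiers in WT at 3 h and 2.58% at 16 h, for 21.0% and 7.81% in KO, and for 16.0% and 3.304% in the rescue line. Summed over identifiers, the WT ratio of 16 h over 3 h was 0.508 at 0 to 5 kb and between 0.922 and 1.14 beyond 25 kb. The KO ratio was 0.983 at 0 to 5 kb, 1.06 at 5 to 10 kb and between 1.003 and 1.18 beyond 25 kb. The rescue ratio was 0.841 at 0 to 5 kb and between 0.911 and 1.12 beyond 25 kb. The drop next to the TSS in WT was therefore seen both in the sum and in the median, whereas the distal rise was seen in the median and hardly in the sum.

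The files give no gene ends, so a set of 210 long-span identifiers stood in for long transcription units. Averaged over the 6 libraries, each had signal in every 5 kb window of the first 100 kb, no dominating window and little signal upstream, which made up the rule for choosing them. Their mean distal level in WT was 4.51 at 3 h and 6.36 at 16 h, a ratio of 1.41. In KO it was 4.98 and 5.61, a ratio of 1.13, and in the rescue line 4.92 and 6.23, a ratio of 1.27. In this set the sum and the median both rose in all 3 lines, least in KO.

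The median distal change of the long-span set was 0.90 in WT, 0.16 in KO and 0.77 in the rescue line, beside 0.34, 0.17 and 0.51 over all identifiers tested. Distal signal was higher at 16 h for 167 of 210 in WT, 134 in KO and 174 in the rescue line, and at least 2-fold higher for 102, 6 and 70. From 25 to 50 kb the medians were 1.26, 0.03 and 0.70. The WT 5 kb profile of this set ran from -0.41 at 0 to 5 kb to 1.60 at 40 to 45 kb. Summed over this set, the KO ratio was highest at 0 to 5 kb (1.30) and lowest at 20 to 25 kb (1.01). The WT ratio at 0 to 5 kb was 0.606. In the authors' averages over 308 genes, given below, the KO ratio at 0 to 5 kb was 0.682, below its 0.815 from 25 to 100 kb. No long-span identifier lacked signal in the whole distal window in any of the 6 libraries, which the rule for choosing them favours.

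Of the long-span set, 31 of 210 distal levels were among those that changed, 30 higher and 1 lower (14.8%, beside 10.2% over all tested). For the near level 21 of 208 had changed, 17 higher and 4 lower (10.1%, beside 13%). Of the balances, 14 of 208 had changed, 7 in each direction (6.73%, beside 7.37%). The median near change was 0.19 in WT, 0.19 in KO and 0.47 in the rescue line.

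The shift can also be given as a distance. The midpoint distance was the distance from the TSS by which 50% of an identifier's signal within 100 kb downstream had accumulated. Over 2753 identifiers with signal in every library, its median in WT was 23 kb at 3 h and 34.8 kb at 16 h. In KO it was 30 kb and 28.8 kb, and in the rescue line 27.8 kb and 32.6 kb. WT had the shortest midpoint of the 3 lines at 3 h and the longest at 16 h.

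In the long-span set the midpoint medians were 33.7 kb and 45.7 kb in WT, 40 kb and 39.9 kb in KO, and 41.1 kb and 44.4 kb in the rescue line. The median change per identifier was 11.6 kb in WT, -0.8 kb in KO and 2.9 kb in the rescue line, with the midpoint further out at 16 h for 151, 91 and 126 of 210. The median share of signal that lay in the first 25 kb was 43.2% at 3 h and 30.7% at 16 h in WT, 36.5% both times in KO, and 35.6% and 31.1% in the rescue line. By these medians the signal of KO lay as far out at 16 h as at 3 h, while that of WT lay further out.

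**Figure D4:**
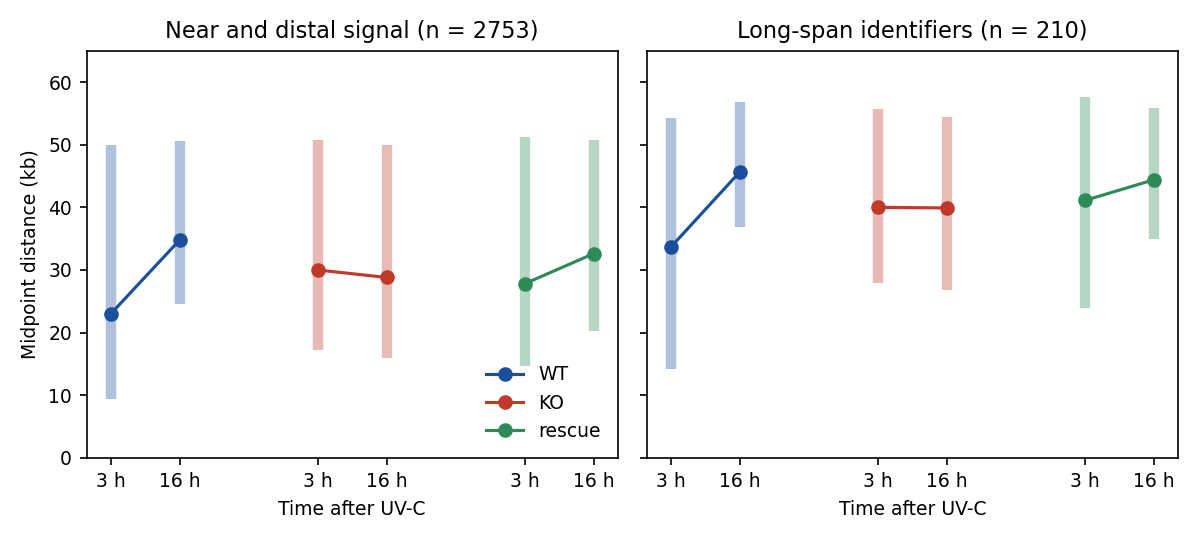
Midpoint distance, the distance from the TSS at which 50% of the signal of the first 100 kb had accumulated, at 3 h and 16 h in each line; points are medians over identifiers and bars span the middle 50%. In long-span identifiers (right) the WT median goes from 33.7 to 45.7 kb and the KO median from 40 to 39.9 kb.

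The drop in WT was centred just inside the transcription unit. Over the 3239 identifiers with a start ratio, mean WT signal at 1 to 2 kb was 32.7 at 3 h and 14.996 at 16 h, a ratio of 0.458, and the curves of both times crossed between 11 and 13 kb, where the ratio went from 0.947 to 1.06. In KO the mean at 1 to 2 kb was 28.1 and 27.1, and in the rescue line 25.6 and 21.6. In the first 1 kb the mean was 22.8 and 11.5 in WT, 23.4 and 25.2 in KO, and 19.8 and 15.2 in the rescue line. Over these 3239 identifiers, KO was the one line whose summed signal in the first 1 kb was not lower at 16 h. In the long-span set it was not lower in rescue either (ratio of 1.04). The authors' averages over 308 genes of at least 100 kb, given below, had a KO ratio of 0.748 there.

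**Figure D5:**
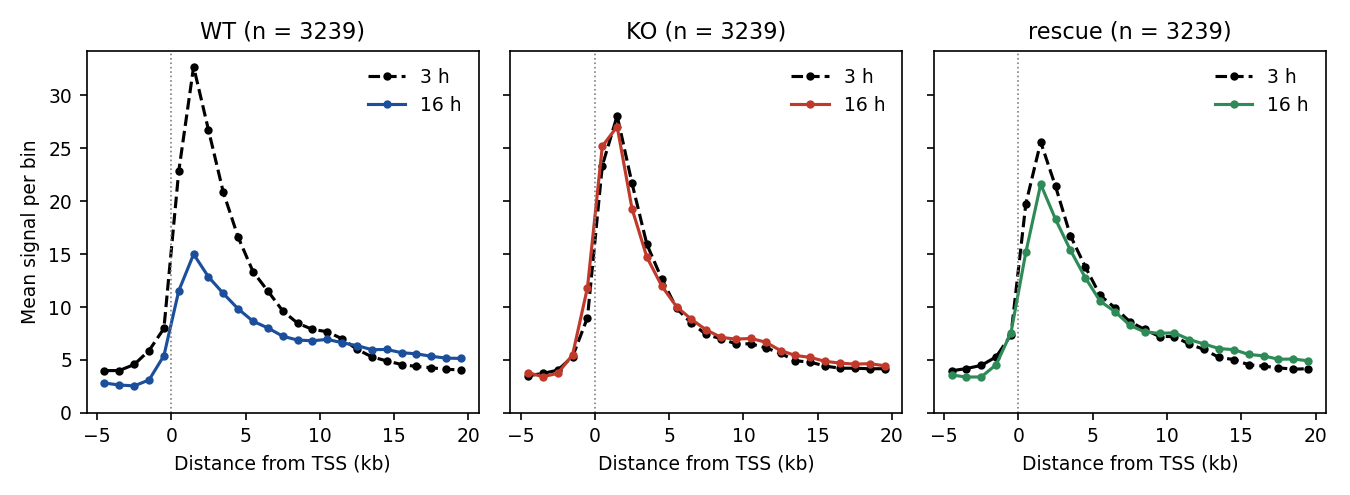
Mean signal per bin in windows of 1 kb from 5 kb upstream to 20 kb downstream of the TSS at 3 h (dashed) and 16 h (solid), over 3239 identifiers in each line. The WT peak at 1 to 2 kb goes from 32.7 to 14.996, and that of KO from 28.1 to 27.1.

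The start ratio compares the first 1 kb, where polymerases initiate and pause, with the next 4 kb, where they have entered elongation. Taken from the summed signal it was 0.943 at both times in WT, 1.19 at 3 h and 1.38 at 16 h in KO, and 1.02 and 0.892 in the rescue line. The WT losses in the first 1 kb and in the next 4 kb were therefore of equal size (ratios of 0.508 each over all identifiers past their filters). The median log2 change was 0.14 in WT, 0.29 in KO and -0.11 in the rescue line, a mean of 0.11 ± 0.20 (SD, n = 3 lines), so the spread between lines exceeded the mean. With 0 to 2 kb set over 2 to 10 kb instead, the WT median was -0.24.

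No start ratio passed the test of 16 h against 3 h in limma (0 of 3239, 0%), with 258 at an unadjusted p under 0.05. A term for the KO response against the mean of WT and rescue called 296 start ratios (9.14%), 226 of them with a larger increase in KO and 70 with a smaller one. This count rests on the settings of the fit: it was 1 with all 9 libraries in the model and 0 with a pseudocount 5 times higher. The first 1 kb had no signal in 488 of 3488 identifiers in KO at 3 h and in 78 at 16 h, against 62 and 13 in WT and 312 and 11 in the rescue line.

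Signal just upstream of the TSS, where divergent transcripts arise, was followed as well. From 1 kb upstream to the TSS the mean was 8.23 at 3 h and 5.64 at 16 h in WT, 9.31 and 12.2 in KO, and 7.58 and 7.86 in the rescue line, ratios of 0.685, 1.31 and 1.04 over 3278 identifiers. The strand of the signal is not given, so upstream transcripts and those of a neighbouring gene cannot be told apart. In KO 1187 of these identifiers had no signal in this window at 3 h and 307 at 16 h. From 5 to 1 kb upstream the ratios were 0.634 in WT, 0.968 in KO and 0.879 in the rescue line.

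Whether lines differed in their response was tested with a term for KO against the other lines and one for WT against the other lines, each with 1 residual degree of freedom; rescue against the other lines was not tested. For the KO response against WT and rescue, limma called no identifier (0%) for the near level (138 at an unadjusted p under 0.05), the distal level (543) or the balance (204). The median difference of KO from the other lines was 0.05 for the near level, -0.29 for the distal level and 0.49 for the balance. The distal response of WT against KO and rescue was called for 30 of 4254 identifiers (0.705%), 22 with a larger rise in WT and 8 with a smaller one. That count was 153 with all 9 libraries in the fit. The same WT term, added after seeing the data for the other measures, called 37 of 2754 balances (1.34%), 34 with a larger shift toward distal in WT and 3 with a smaller one. The median difference of the WT balance from the other lines was -0.61, and the count was 363 with all 9 libraries and 65 with a pseudocount 5 times higher. It called 12 of 3586 near levels (0.335%), 4 with a larger and 8 with a smaller change in WT, which became 37 with all 9 libraries and 0 with the higher pseudocount. For the start ratio it called none in limma (0%), with 28 at an unadjusted p under 0.05.

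Across identifiers, the changes of WT and rescue resembled each other more than either resembled that of KO for the distal level. Pearson's r of the distal changes over 4254 identifiers was 0.63 for WT and rescue, 0.50 for KO and rescue and 0.18 for WT and KO, and the sign was shared by 76.6%, 66.4% and 55.1%. For the balance the 3 values were 0.64, 0.48 and 0.23, and for the near level 0.63, 0.56 and 0.37. For the start ratio all 3 were low, 0.22, 0.08 and 0.08. Identifiers are not independent replicates, KO had the shallowest 3 h library, and the part of depth in these values was not tested.

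The 2 identifiers with the largest near rise and the 2 with the largest fall are given as examples. They come from 268 that were called, lay in the top 60% by level and had a single direction over the lines. Of these, 100 rose and 168 fell. This choice favours a separation of the 2 times, so the lack of overlap given below is no separate support. The near level of uc003swb.4 was 1.83 in WT, 2.85 in KO and 1.95 in the rescue line at 3 h, and 6.74, 7.18 and 10.8 at 16 h. All 3 values at 16 h lay above all 3 at 3 h, and the log2 change was 1.85 (SE 0.36, limma adjusted p = 2.18e-05). Its distal level, above the near level at 3 h (6.95, 4.87 and 5.86), did not rise with it (log2 change -0.24, limma adjusted p = 0.627).

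The near level of uc002jei.4 was 2.18, 1.25 and 1.52 in WT, KO and rescue at 3 h and 6.81, 5.37 and 5.96 at 16 h. Here too the times did not overlap, with a log2 change of 1.84 (SE 0.38, limma adjusted p = 7.1e-05). In both of these identifiers the kilobase with most near signal was the first one after the TSS, holding 13.3% of it in uc003swb.4 and 15.4% in uc002jei.4.

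The near level of uc062dty.1 was 12.0, 19.4 and 29.0 in WT, KO and rescue at 3 h and 0.771, 2.07 and 1.78 at 16 h. It fell by 3.64 on the log2 scale (SE 0.35, limma adjusted p = 1.31e-21), and its distal level fell by 2.17 (limma adjusted p = 0.00802). That distal level was 74.2, 105 and 183 at 3 h, above the near level in every line. Gene ends are not given, so distal signal of the same transcript and of another cannot be told apart. In the first 1 kb of uc062dty.1 the signal was 73.3, 181 and 180 at 3 h and 5.90, 14.7 and 8.63 at 16 h. Every value at 16 h was thus far below every value at 3 h, in KO as in the other lines.

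The near level of uc002kqt.5 was 21.7, 44.9 and 48.3 at 3 h and 1.41, 4.98 and 4.13 at 16 h, so it fell by 3.505 on the log2 scale (SE 0.35, limma adjusted p = 1.26e-20). Of its near signal 52.5% lay in 1 kb at 24 to 25 kb, and its own first 1 kb held no signal in KO or rescue at either time, and 2.28 at 3 h and 0.299 at 16 h in WT. In that 1 kb the signal was 241 in WT, 677 in KO and 569 for rescue at 3 h, and 21.7, 80.4 and 57.5 at 16 h. Over the rest of the near window it was 12.5, 18.6 and 26.6 at 3 h and 0.563, 1.84 and 1.90 at 16 h, so both parts were lower at 16 h in all 3 lines. In the near fit the spread was pooled wholly over identifiers of like level, so small p-values rest on that pooled spread. An identifier's own spread between the lines had no weight in them. In the distal fit the pooling was almost complete.

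The authors' averaged profiles of their own length classes were read in the same windows. In the authors' deposited table for 308 genes of at least 100 kb, the mean at 0 to 5 kb was 19.1 at 3 h and 8.04 at 16 h in WT, 18.2 and 12.4 in KO, and 18.0 and 10.2 in the rescue line. In that deposited table the mean from 25 to 50 kb was 1.24 and 3.39 in WT, 2.17 and 1.64 in KO, and 1.80 and 2.02 in the rescue line. From 50 to 75 kb the ratio of 16 h over 3 h in the authors' deposited table was 4.18 in WT, 0.786 in KO and 1.56 in the rescue line. WT thus had the lowest of these distal means at 3 h and the highest at 16 h.

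The share of signal in the first 25 kb of these 308 genes, from the authors' deposited table, was 74.2% at 3 h and 40.8% at 16 h in WT, 59.8% and 56.97% in KO, and 66.0% and 49.6% in the rescue line. For 787 genes of at least 50 kb the authors' deposited table gave a near share lower by 27.0 percentage points at 16 h in WT, by 3.53 in KO and by 12.4 in the rescue line. For 1473 genes of at least 25 kb, in the authors' deposited table, these drops were 16.5, 2.03 and 7.43. Rescue lay between KO and WT in all 3 classes, and the WT drop was larger in the classes of longer genes. The authors' tables hold no spread over genes, and their gene sets and scaling differ from those of the identifiers above. From 25 to 100 kb, the authors' deposited ratio of 16 h over 3 h for the 308 genes was 0.815 in KO. The long-span set gave 1.13 for KO, so it differed from those genes in direction. In WT and rescue the distal mean rose in both sets. From 0 to 25 kb the authors' deposited ratio for the 308 genes was 0.790 in WT, 0.725 in KO and 0.710 in the rescue line. The long-span set gave 0.936, 1.14 and 1.13, so KO and rescue differed in direction there too. At 0 to 1 kb the authors' deposited ratio in KO was 0.748 for the 308 genes, 0.993 for the 787 and 1.13 for the 1473.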

How the data were processed

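BrU-seq libraries of 3 lines at 3 h and 16 h after UV-C were used, 6 in all; mock libraries entered only an alternative fit. Per the submitters' processing notes, the tools named were HOMER 4.8.2, STAR 2.7.7a, R 4.0.5, Trim Galore 0.6.5 and FastQC 0.11.9, with the builds GRCh38 and hg38; their roles and settings are not given in the sources used here. The values deposited by the authors are signal, scaled coverage in 200 bp bins around each start, and the averaged tables hold the authors' means of such signal over genes. The signal is no count, so no count model was used.

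Rounding residues (lowest deposited value -2.01e-11) were set to 0. Identifiers entered a test at a mean of at least 1 (near level, and both regions of the start ratio) or 0.5 (distal level). Levels were log2(signal + 0.1) and start ratios used a pseudocount of 1, which understate the change of low identifiers with signal at both times. An identifier at 0 in a shallow 3 h library and above 0 in the deeper 16 h library can still show a large rise. Tests used limma 3.58.1 (trend, empirical Bayes) in R 4.3.3 with line as a block and 2 residual degrees of freedom, called at an adjusted p under 0.05; code was tested on simulated data. Alternatives were no line block, each line left out, all 9 libraries, other filters, pseudocounts, windows and scaling. No exact test of a single value can pass 0.05 with 3 pairs, where the smallest two-sided p is 0.25.

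Named identifiers were the 2 that rose and the 2 that fell most among near levels called, in the top 60% by level, with 1 direction in all lines; where windows showed the same signal shifted, the first by name was taken. The members, lists and long-span set were chosen with earlier results of these data known. No identifier matched the reference tables (0), so planned gene and marker lists were not used and no sequence is shown. Level classes, midpoint distances, upstream windows and WT response tests other than the distal one were added after seeing the data. Neighbouring starts can share signal. Depth is relative only, from the smallest step between values.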

Additional observations from a re-analysis of the deposited data

Results flagged for a closer look

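The lines moved in opposite directions in several measures, judged by the sign of each line's median log2 change from 3 h to 16 h; with 1 library per line and time, these differences between medians were not tested. The near level of WT had a median change of -0.0865, while both other lines were above 0. WT was also the one line below 0 in the first 1 kb (-0.46), from 1 to 5 kb (-0.60) and from 5 to 1 kb upstream (-0.21). The start ratio of rescue was below 0 (-0.11) where WT and KO were above it. The near over distal balance of KO was just above 0 (0.0395) where WT and rescue were below it.

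In limma, a term for the difference itself called 296 start ratios for KO against WT and rescue, and for WT against KO and rescue 37 balances, 30 distal levels and 12 near levels. The 296 became 0 with a higher pseudocount and 1 with all 9 libraries in the fit, and the 12 became 0 with the higher pseudocount.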

How the results depend on the processing

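Counts of calls in limma depended on the settings. Of 56 alternative counts, 29 stayed within 1.5 times the main count, but 15 of those were 0 against a main count of 0, which shows no stability. Leaving out 1 line at a time gave 105 to 575 near calls, 36 to 1162 distal calls, 0 to 36 start ratios and 25 to 385 balances. Without the line block 234 near levels were called. With all 9 libraries in the fit the counts were 741 (near), 1026 (distal) and 401 (balance), and for the tests of a line's response 7 (near, KO), 153 (distal, WT), 37 (near, WT), 363 (balance, WT) and 1 (start ratio, KO). Without the filter they were 223, 68 and 2, and with a filter 4 times higher 287 (near) and 113 (balance), among fewer identifiers tested. Trimmed-mean scaling gave 104 distal calls, near windows of 0 to 10 kb gave 285 near calls, and a balance of 0 to 50 kb over 50 to 100 kb gave 63. A pseudocount 5 times higher left 0 start ratios for the KO response, and 0 near levels and 65 balances for the WT response; the WT tests of the near level, start ratio and balance were added after seeing the data. For the profile from 25 to 50 kb, the main median change was 0.83 in WT, 0.16 in KO and 0.56 in the rescue line. The log2 ratio of the summed signal there was 0.16 in WT and 0.0823 in the rescue line, and the WT median of long-span identifiers was 1.26. Except where the number of identifiers tested changed, the cause was not tested. Of 60 alternative medians per line, 50 moved by less than the SD of the 3 lines and 6 changed sign or became 0. All 4 named identifiers kept their direction and passed the test under every alternative in which they were tested. They were chosen as the largest changes in these same libraries, so this shows little about the stability of other calls. The main fit pairs both times within a line, with the line as the block. The 3 h library of KO is the shallowest, and the depth gain between times is largest in the rescue line.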
